A study of Homo sapiens with 5 samples.

Results

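The KLF and SP genes encode zinc finger transcription factors, and 10 of them were followed here in a list of called transcription start sites from HUDEP-2 cells, an immortalised human line of erythroid progenitors. The genes were KLF1, KLF2, KLF3, KLF6, KLF10, KLF11, KLF13, KLF16, SP1 and SP3, taken by name from 19974 protein-coding genes on chromosomes 1 to 22 and X. Calls of both strands were collected inside these genes and up to 10 kb on either side. This gave 94 of the 28283 deposited calls.

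The assay was PRO-seq, or precision run-on sequencing, in which engaged polymerases in isolated nuclei add labelled nucleotides to the RNA they are making. The series holds 3 libraries of cells edited with the guide sg1617 against the BCL11A enhancer, 1 for each of 3 single-cell clones. One clone had gained 1 bp, another had lost 13 bp and the last had lost 15 bp. A further 2 libraries came from unedited wild-type HUDEP-2 cells. The deposited lists are 1 per strand, carry no value per library and were made from 1 alignment whose name shows no edit, so no edited clone could be compared with wild-type cells.

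A call states only that a start site was placed at a base. The score was 0 for each call, the reads behind a call are unknown and each list exists once, so the values below are positions and counts and not levels of transcription. By calls at an end of the gene, the 6 erythroid markers reported were called (HBB, HBA1, HBA2, ALAS2, GATA1 and SLC4A1), and 0 of the 3 reported markers of other blood cells were (CD3E, MPO and CD14).

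Factors of this family bind GC-rich elements, the GC box and the CACCC box, through zinc fingers at the end of the protein. KLF1 is the erythroid member, which activates the adult beta-globin gene and much of the red cell programme, and mutations of it raise fetal haemoglobin. KLF3 is a repressor that works with CtBP proteins and whose gene is itself activated by KLF1, while SP1 and SP3 are found in nearly all cells.

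Of the 10 genes, 9 had a start call, defined as a call on the gene's own strand within 500 bp of an annotated start. Among 15812 protein-coding genes with an annotated strand, 48.8% had one (interval 48.0 to 49.6%). Any call of either strand in the gene or within 10 kb was found for all 10, against 62.4% of the 15812 genes. The exception among start calls was KLF2, a factor best known from endothelial cells and resting T cells. The 10 genes were listed with earlier results of these calls known, so their count is not independent evidence that the family is called often. The same holds for later counts of these genes set against all genes. In 6 of the 9 genes a start call lay within 10 bp of an annotated start, against 56.3% of all genes with a start call.

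The bases around 7 of these start calls could be read from the RefSeq promoter windows (GRCh38.p14), and they are shown because they place each call on the DNA. Each line gives 10 bases before the call, the called base and the base after it in capitals, and the bases that follow, 5′ to 3′ on the strand of the gene.
KLF1, chr19:12887188-12887208, reverse strand: cagcctcagaGTtcacgaggc
KLF6, chr10:3785221-3785241, reverse strand: ttgaatagggAAgttttgcag
KLF13, chr15:31326864-31326884, forward strand: tcccgcctgcCAcaatgcgcg
KLF16, chr19:1863570-1863590, reverse strand: ccgcctcccgCActcgagcag
SP1, chr12:53380166-53380186, forward strand: cctcctccttACccccccctc
SP3, inner start, chr2:173963875-173963895, reverse strand: cattgggggtAGgacactcag
SP3, outer start, chr2:173965859-173965879, reverse strand: gggcgggtctGGtttgctcag

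Only the calls of KLF13 and KLF16 had the pair CA at the called base and the next. Over 4168 forward and 3973 reverse calls that lay in promoter windows, this pair was found in 32.9% and 34.5%. The called base was C in 48.7% of the forward and 50.1% of the reverse calls, and the following base was A in 49.2% and 50.3%. The commonest offset was 1 base upstream of the annotated start, with 763 forward and 813 reverse calls, ahead of the start base itself with 516 and 445. Polymerase II usually begins at a purine that follows a pyrimidine, and the first base of that pair was the called one in many calls. Offsets of a single base are therefore not read as differences between genes.

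Longer promoter stretches are shown for KLF1 and for 3 genes whose start calls lay at or within 5 bp of an annotated start, KLF16, SP1 and SP3. Each runs from 150 bases before the start to 20 bases into the gene, and capitals mark motif matches on either strand, which may overlap. The motifs were GATAA as the core bound by GATA factors, CCAAT as the box bound by NF-Y, GGGCGG as the GC box, CACCC as the box bound by KLF1 in the beta-globin promoter, and TATAAA as the TATA box.
KLF1, chr19:12887182-12887351, reverse strand: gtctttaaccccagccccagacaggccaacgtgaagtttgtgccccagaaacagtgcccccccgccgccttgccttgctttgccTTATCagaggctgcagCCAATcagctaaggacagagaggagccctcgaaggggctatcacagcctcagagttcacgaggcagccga
KLF16, inner start, chr19:1863560-1863729, reverse strand: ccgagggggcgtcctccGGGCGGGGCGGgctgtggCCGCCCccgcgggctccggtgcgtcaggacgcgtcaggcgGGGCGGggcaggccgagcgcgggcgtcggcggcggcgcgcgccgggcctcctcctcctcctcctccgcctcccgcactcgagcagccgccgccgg
SP1, chr12:53380026-53380195, forward strand: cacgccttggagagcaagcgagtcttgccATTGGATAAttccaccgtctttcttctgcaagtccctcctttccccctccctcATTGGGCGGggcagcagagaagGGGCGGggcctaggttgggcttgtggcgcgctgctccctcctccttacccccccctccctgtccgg
SP3, inner start, chr2:173963861-173964030, reverse strand: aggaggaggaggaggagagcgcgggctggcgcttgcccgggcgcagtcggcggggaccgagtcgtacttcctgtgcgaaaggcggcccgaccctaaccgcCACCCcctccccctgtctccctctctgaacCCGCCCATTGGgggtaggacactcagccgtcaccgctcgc

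The KLF1 window had no GC box in its 300 bases, whereas the other 11 of the 12 windows of 8 genes had at least 1. GC boxes were found in 44.9% of all 34789 windows. KLF1 instead had a GATAA match beginning 66 bases before the start and CCAAT matches beginning 50 and 238 bases before it. It also had a CACCC match beginning 42 bases past the start, beyond the printed stretch. Of the 12 windows, 2 had GATAA, that of KLF1 and the outer one of SP1, against 22.8% of all windows. CCAAT was present in 6 of the 12 and 34.6% of all windows, CACCC in 6 and 59.9%, and TATAAA in 0 and 11.6%. Matches to such short motifs are descriptions of sequence and not evidence of binding. The 12 windows were not all at called starts. KLF2 and the KLF11 start at 10044221 had 0 own-strand calls within 500 bp. For the SP1 start at 53380644 and the SP3 start at 173965373, the nearest own-strand calls were 468 and 496 bp away. The contrast in GC boxes is therefore not one between called starts only. KLF3 and KLF10 are not among the windows shown.

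KLF1 (gene ID 10661) is on the reverse strand of hg38 chromosome 19, between 12884422 and 12887201, so its start is the right-hand end. The first own-strand call was at 12887198, 3 bp into the gene, and a forward call at 12887310 faced away from it at a distance of 112 bp. A second own-strand call followed at 12886946, 255 bp into the gene. Further forward calls lay 492 and 790 bp upstream of the start. The right-hand end of KLF1 thus carried a divergent start in the orientation of the gene.

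The left-hand end of KLF1 met a rule for starts only because of a forward call at 12883951, which lay outside the gene, 471 bp past its annotated end. That call ran antisense to KLF1, and no gene with a forward start was annotated within 500 bp of it. It formed a divergent pair with a reverse call at 12883861, 90 bp away, and the reverse call belonged to the run described next. With a window of 100 bp the forward call was no longer at the end, and 1 own-strand call at the right-hand end remained. Own-strand calls of the same run also lay 49 bp inside the left-hand end, at 12884471, and 242 bp past it, at 12884180. The start in the orientation of KLF1 was thus called at its right-hand end, and the only forward call within 500 bp of its left-hand end was the one at 12883951.

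Own-strand calls went on through the whole of KLF1 and beyond it. There were 8 in the gene, 3, 255, 917, 1359, 1729, 2036, 2329 and 2730 bp from the start. A further 7 followed past the annotated end, at 242, 561, 909, 1177, 1441, 1819 and 2082 bp beyond it. The 15 calls spanned 4858 bp, with gaps of 252 to 662 bp and a median gap of 313 bp. Apart from the gap of 662 bp, none was longer than 442 bp, so merging calls within 500 bp would join most of the run. The counts and densities of KLF1 and of all genes given below rest on unmerged calls. Inside the gene, the call at 917 bp had a forward partner 147 bp away at 12886431, the only opposite-strand call there. No gap between neighbouring calls on a strand of chromosomes 1 to 22 and X was shorter than 206 bp, and 12.2% of such gaps were at most 500 bp.

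The run reached the next gene, DNASE2, a lysosomal nuclease gene on the same strand whose annotated start lies 2973 bp from the end of KLF1. One more reverse call was placed 454 bp upstream of the DNASE2 start, and the start call of DNASE2 itself, at 12881436, lay 13 bp inside that gene. A forward call at 12881579 was paired with it at 143 bp. On the other side of KLF1, a divergent pair stood at GCDH, a gene of amino acid breakdown, with a forward call at 12891159 and a reverse call 342 bp away at 12890817. Only 2 of the 18 own-strand calls within 10 kb of KLF1 were close enough to the DNASE2 start, within 500 bp, to count for that gene.

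**Figure D1:**
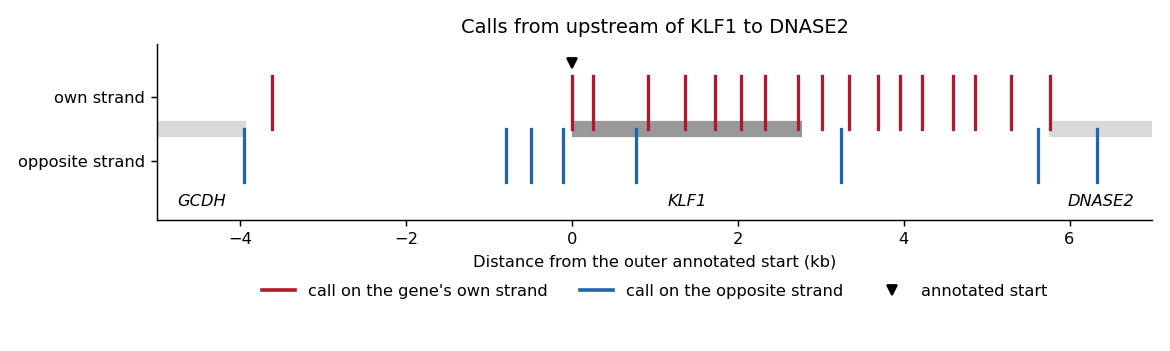
Calls from 5 kb upstream of KLF1 to DNASE2, plotted by distance from the annotated start of KLF1 in kb. Red ticks above the gene bar are calls on its own strand, blue ticks below it are calls on the opposite strand, and the triangle marks the annotated start. The red ticks continue past the end of KLF1 as far as DNASE2, and the blue tick just past the end of KLF1 is the call at 471 bp.

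Few other genes had as many own-strand calls, by counts that do not measure how closely the calls follow each other. Besides KLF1, KLF6 had an own-strand call within 3 kb past its end and away from annotated starts, which makes 2 of the 9 genes with a start call, against 5.04% of all such genes. Among 7713 genes with a start call, 0.324% had at least 8 own-strand calls between 500 bp upstream of the gene and its end. The cut of 8 equals the count of KLF1 itself, and KLF16, with 9 calls and gaps of 661 to 11278 bp, also met it. At least 5 calls past the end, within 3 kb and away from annotated starts, were found in 0.169% of the 7713 genes. Per kilobase KLF1 had 2.88 own-strand calls, and 39 of the 7713 genes had more. The median was 0.0414 calls per kb and the 99th percentile 1.43. Past its end 1 gene, PIM1, had more calls than KLF1, 9 against 7, and GBGT1 and RPS12 also had 7. The density of calls depends on the length of a gene, since a short gene with 1 call already has a high value. Whether the calls of the run are starts of separate transcripts was not tested.

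**Figure D2:**
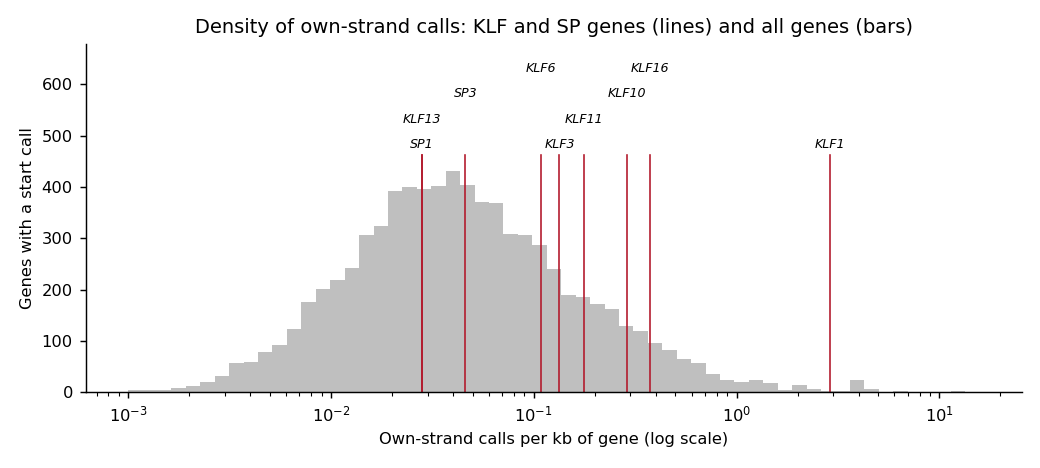
Own-strand calls per kb of gene, on a log axis, for the 9 listed genes with a start call (red lines, named above) and for 7713 protein-coding genes with a start call (grey bars, number of genes). KLF1 stands at 2.88 calls per kb, and the other 8 lie between 0.028 and 0.373.

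KLF16 (gene ID 83855), which encodes a repressor that binds GC boxes, lies on chromosome 19 from 1852399 to 1876536 on the reverse strand. It had 9 own-strand calls between 500 bp upstream of its outer start and its end, against 8 in KLF1 counted by the same rule. KLF16 is 24138 bp long and KLF1 2780 bp, which gave 0.373 and 2.88 calls per kb. The outer right-hand end of KLF16 carried a call 366 bp into the gene at 1876170, with a forward partner 97 bp away. The start given in the RefSeq promoter table lies further inside, at 1863579, and a call at 1863580 lay 1 bp upstream of it. That call was 12956 bp from the outer end, so a count from the outer end alone would have missed it. Its nearest forward partner was 917 bp away.

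Past the inner start KLF16 held a cluster of divergent pairs. In 4 of them the calls were each other's nearest partner, with the own-strand call 4746, 8195, 8856 and 10116 bp downstream of the inner start and distances of 173, 226, 122 and 121 bp. In all, 10 forward calls lay inside the gene, antisense to it. At least 3 such pairs over 1000 bp from every annotated start were found in 0.207% of the genes with a start call. Inside KLF1 8 calls lay on its own strand and 1 on the opposite strand, whereas KLF16 held 9 and 10. No gap between the own-strand calls of KLF16 was under 661 bp.

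**Figure D3:**
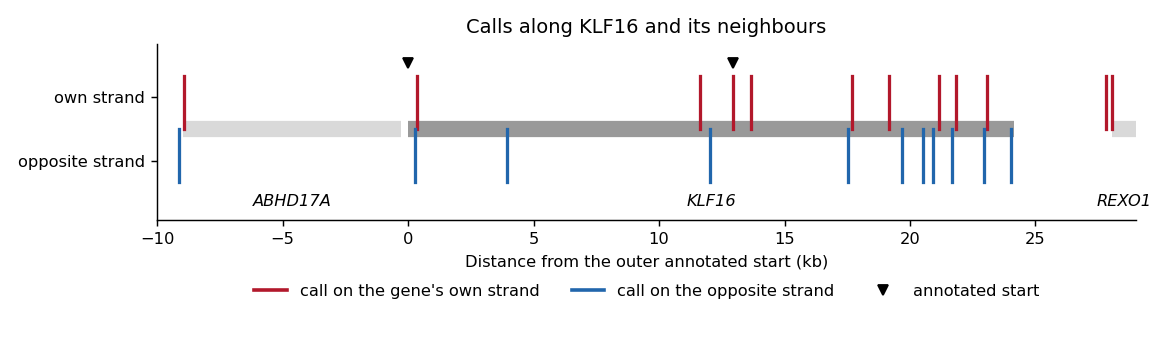
Calls along KLF16 and the neighbouring genes ABHD17A and REXO1, plotted by distance from the outer annotated start of KLF16 in kb. Red ticks are calls on the strand of KLF16, blue ticks are calls on the opposite strand, and triangles mark the outer and the inner annotated start. A red tick stands at the inner start, and ticks of both colours lie beyond it.

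The neighbours of KLF16 had calls of their own in the 10 kb around it. ABHD17A, which encodes a depalmitoylating enzyme, was called 6 bp inside its start at 1885490, with a forward partner 162 bp away. REXO1 was called 12 bp inside its start at 1848471, and another reverse call lay 246 bp upstream of that start.

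KLF3 (gene ID 51274) lies on chromosome 4 from 38664199 to 38701517 on the forward strand. It was called 1 bp upstream of its start at 38664198, with reverse calls 500 and 784 bp upstream of that call, inside the antisense gene KLF3-AS1, which overlaps this end. A further divergent pair lay 1869 bp upstream of the start, with the forward call at 38662330 and its partner 178 bp away. Inside the gene 4 more own-strand calls lay 820, 2702, 3245 and 9136 bp from the start, and the call at 3245 bp had a reverse partner at 275 bp. The own-strand calls of KLF3 were thus gathered in the first part of a gene of 37319 bp, with none past its end within 10 kb.

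KLF13 (gene ID 51621), which activates the RANTES gene in T cells, lies on chromosome 15 from 31326835 to 31435665 on the forward strand. Its start call at 31326874 was 39 bp into the gene, with reverse calls 424 and 717 bp upstream of it. Deep inside the gene, 2 divergent pairs lay 37751 and 39287 bp from the start, with the reverse partners 182 and 321 bp away. A reverse call without a forward partner preceded them, 35409 bp from the start. Past the far end 2 reverse calls lay at 453 and 5242 bp, both unpaired.

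KLF10 and KLF11 encode TGF-beta-inducible repressors that bind the corepressor SIN3A. KLF10 (gene ID 7071), on the reverse strand of chromosome 8, was called 1 bp inside its start with a forward partner at 129 bp. A second divergent pair lay inside KLF10, with the own-strand call 1760 bp from the start and its partner 157 bp away. KLF11 (gene ID 8462), on the forward strand of chromosome 2 from 10043550 to 10054836, had own-strand calls at 10043308 and 10043571, 242 bp upstream of its outer start and 21 bp inside it. The table gave 2 inner starts for KLF11, and the nearer, at 10043829, was 258 bp downstream of the second call. KLF11 had 0 calls on the opposite strand in the gene or within 10 kb, as was the case for 16.8% of genes with a start call. A gene for a divergent transcript, KLF11-DT, is annotated next to it.

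KLF6 (gene ID 1316), a widely expressed factor that is quickly induced by injury, lies on chromosome 10 from 3775996 to 3785209 on the reverse strand. Its single start call at 3785231 lay 22 bp upstream of the start, with a forward partner at 324 bp. A further own-strand call at 3775967 lay 29 bp past the far end of KLF6, and a forward call stood 1688 bp inside the gene. KLF2 (gene ID 10365), on the forward strand of chromosome 19 from 16324826 to 16328685, had 0 own-strand calls in the gene or within 10 kb. Its only call, a reverse call at 16324669, lay 157 bp upstream of KLF2 and 1 bp inside the start of the divergent gene KLF2-DT.

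SP1 (gene ID 6667), on the forward strand of chromosome 12 from 53380176 to 53416446, was called at the annotated base itself. A reverse call 714 bp upstream faced away from it, and no other call lay inside the 36271 bp of SP1. A divergent pair also lay far upstream, with the forward call 8628 bp before the start at 53371548 and its reverse partner 259 bp away. SP3 (gene ID 6670), on the reverse strand of chromosome 2 from 173900775 to 173965702, had 3 start calls. One at 173965869 lay 167 bp upstream of the outer start. The others lay 5 and 306 bp upstream of the innermost annotated start at 173963880, at 173963885 and 173964186, with forward partners 77 and 171 bp away. For a further inner start, at 173965373, the nearest own-strand call was the one at 173965869, 496 bp upstream. Forward calls also lay inside SP3 at 173964848 and 173965487. The pair at 77 bp was the closest among the 25 pairs of these genes.

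**Figure D4:**
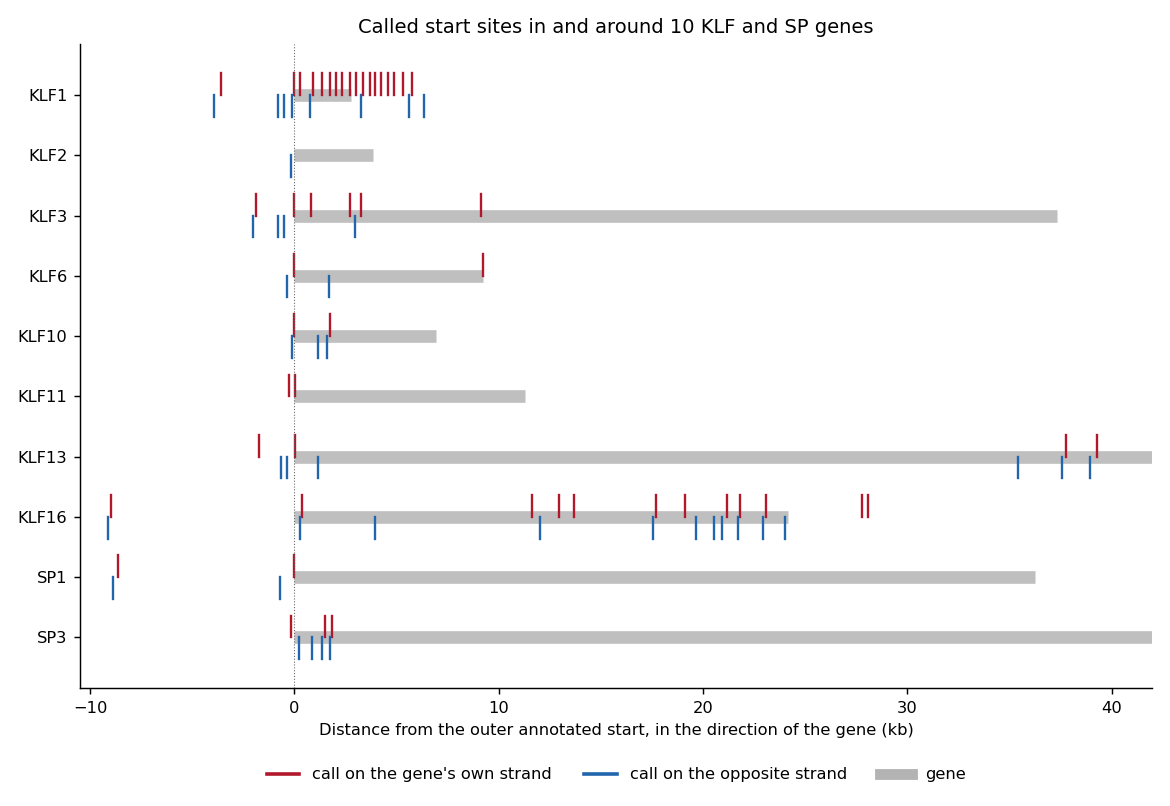
Calls in and around the 10 listed genes, plotted by distance in kb from the outer annotated start in the direction of the gene. Red ticks above the line are calls on the gene's own strand, blue ticks below it are calls on the opposite strand, and grey bars are the genes. The axis ends at 42 kb, so the rest of KLF13, with its 2 calls past the far end, and the rest of SP3, without calls, are not drawn. KLF1 has a dense row of red ticks, KLF16 has ticks of both colours along its length, and KLF2 has a single blue tick.

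Over the 10 genes, 51 calls lay on the gene's own strand and 43 on the opposite strand. By place, 14 were start calls, 15 were antisense calls up to 1000 bp upstream of a start call, 38 were other calls inside a gene, 10 lay further upstream and 17 past the end. Of all 94 calls, 8 lay at an annotated start of a neighbouring gene. A divergent partner within 1000 bp upstream was found for 67% of the 94 calls (Wilson interval 57 to 75.7%), against 60.3% (interval 59.6 to 60.9%) of 22470 calls in or within 10 kb of protein-coding genes. The interval of the smaller set holds the value of the larger one. It treats calls as independent, although partners are paired together and KLF1 and KLF16 held 26 and 23 of the 94 calls. No difference is therefore read from these shares.

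The calls formed 25 pairs in which each was the other's nearest divergent partner, with a median distance of 173 bp and a range of 77 to 917 bp. Of these pairs 10 were at a start call of the listed genes, 9 lay inside a gene away from its start calls, and 4 were at an annotated start of a neighbouring gene, among them the pair at the start of KLF10, whose forward call lay 395 bp from the nearer end of the non-coding gene LOC101927245. The remaining 3 lay outside the gene and away from annotated starts, at KLF1, KLF3 and SP1. Of the 9 genes with a start call, 8 had a start call with a divergent partner, all but KLF11, against 69.4% of all genes with a start call. An own-strand call inside the gene, over 1000 bp from every annotated start and in such a pair, was present in 4 of the 9, KLF3, KLF10, KLF13 and KLF16, against 4.11% of genes with a start call. At least 3 own-strand calls were present in 5 of the 9, KLF1, KLF3, KLF13, KLF16 and SP3, against 8.58%. At least 2 start calls were present in 4 of the 9, KLF1, KLF11, KLF16 and SP3, against 17.4%. Genes were not matched for length in these shares. The listed genes were also chosen with earlier results of these calls known, so these counts are not independent evidence about the family.

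Of the other 17 KLF and SP genes, 7 had a start call (41.2%), against 48.8% of all genes. SP2 and SP4, both close relatives of SP1, were called 1 bp upstream of their starts, SP9 at its annotated base and KLF15 27 bp upstream of it. KLF5, an epithelial factor, was called exactly at an inner annotated start at 73059005 on chromosome 13, 4029 bp from its outer end. KLF8, a repressor whose gene is activated by KLF1, was likewise called only inside, 324320 bp from its outer end and 87 bp past an inner start at 56232356 on chromosome X. Counted from outer ends alone, 5 of the 17 had a start call.

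KLF9, a factor that responds to glucocorticoids, had the most calls of these 17 genes. It held 4 own-strand and 4 forward calls inside the gene, with the start call 343 bp past the annotated start and pairs at 172, 94 and 186 bp. Upstream of KLF9 6 further calls lay 3861 to 6243 bp from the start, inside the divergent gene KLF9-DT. KLF4, KLF7, KLF12, KLF14, KLF17, KLF18, SP5, SP6, SP7 and SP8 had 0 start calls. Of these 10, KLF4, KLF7, KLF14, KLF18, SP5 and SP8 had 0 calls on either strand in the gene or within 10 kb, KLF12 and KLF17 had only opposite-strand calls, and the calls near SP6 and SP7 lay past the end of the gene.

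**Figure D5:**
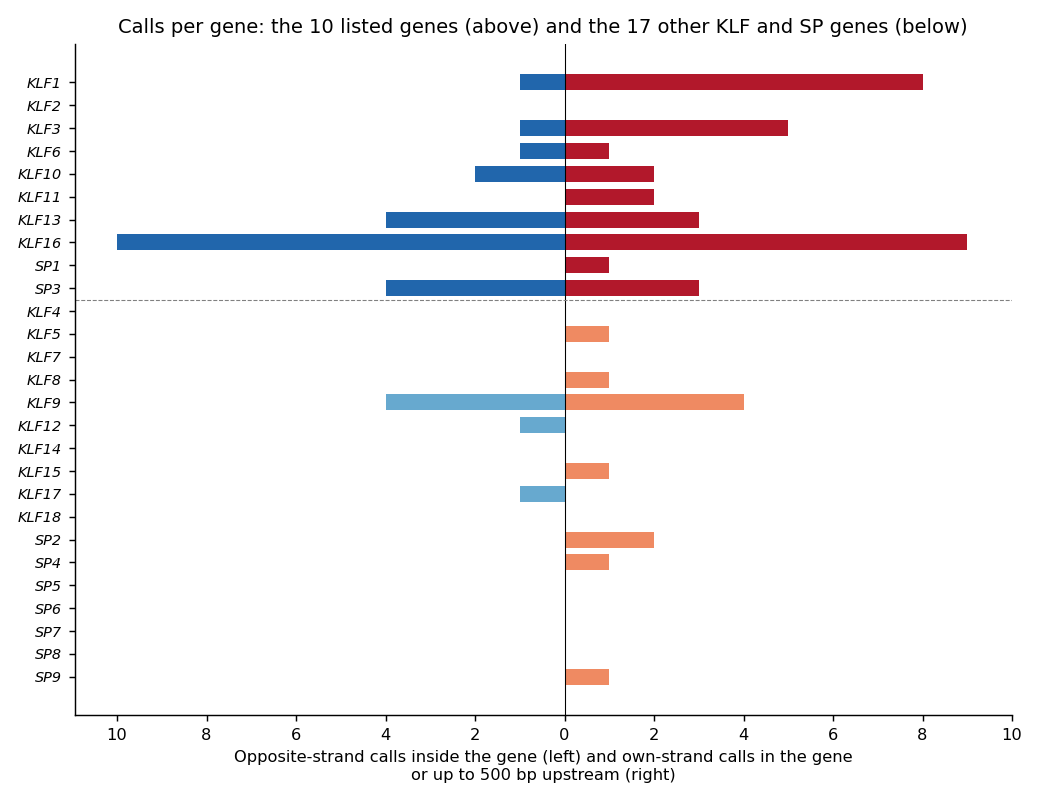
Calls per gene in the 10 listed genes (above the dashed line) and the 17 other KLF and SP genes (below it). Bars to the right count calls on the gene's own strand between 500 bp upstream and the end of the gene, and bars to the left count calls on the opposite strand inside the gene. KLF1 has 8 calls to the right and 1 to the left, KLF16 has 9 and 10, and KLF9 has 4 and 4.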

How the data were processed

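PRO-seq calls came from 2 lists of start sites deposited for the whole series, 1 per strand, made with TSScall on 1 sorted and de-duplicated alignment, per the file headers. Build hg38 and the tools BWA 0.7.16a, Picard, SAMtools 1.17 and deepTools 3.5.4 are named in the submitters' processing notes. No source used here states which TSScall version or read minimum was applied. The score deposited by the authors was 0 throughout, so depth and precision of single calls are unknown. Each call spans 1 base, and its end coordinate was taken as its position.

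Gene ends came from RefSeq GRCh38.p14, which shares coordinates with hg38. Strand and inner starts came from the RefSeq promoter table, with entries for 8 of the 10 genes, 14 of the 17 other KLF and SP genes and 15812 protein-coding genes. The strands of KLF3, KLF10, SP6, SP7 and SP9 were taken from background knowledge. Annotated starts were the outer end and the starts of the table. A start call lay within 500 bp of one, and a paired call had a call of the other strand 0 to 1000 bp upstream. Antisense calls inside a gene and calls in overlapping genes cannot be assigned to 1 gene.

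Intervals are Wilson 95% intervals over calls or genes, cover counting error only and carry no error between libraries. No test between libraries was possible. Named were all KLF and SP genes, 7 listed corepressors, neighbours holding calls and genes most like KLF1. PIM1, GBGT1 and RPS12 were named after their values were seen. Some marker genes are not reported here. The genes and lists were chosen with earlier results of these data known. Start windows, flanks, pair distances and merging of calls were varied. The scripts were tested on simulated calls. Python 3.11.15, numpy 2.4.6, pandas 2.3.3 and matplotlib 3.10.9 were used.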

Additional observations from a re-analysis of the deposited data

How the results depend on the processing

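The count of 9 of 10 genes with a start call was the same with windows of 100, 1000 and 2000 bp, with any own-strand call in the gene counted, with calls within 500 bp merged and with outer starts only, the last an alternative chosen after the data were seen. The other 17 KLF and SP genes varied between 5 and 7, and all protein-coding genes between 6939 and 8160. Without flanks 53 calls in place of 94 remained. The share of paired calls was 52.1% with a pair distance of 500 bp and 77.7% with 2000 bp. For KLF1, own-strand calls near the start were added to opposite-strand calls near the far end. Distances of 100, 500 and 2000 bp gave 1, 3 and 6 such calls. Opposite-strand calls near the start and own-strand calls near the far end were left out of this count. The median of 2.5 own-strand calls per gene was 1.5 when only calls over 500 bp past the start were counted. Of the 32 alternatives run, 26 kept a count within 1.5 times, or a share within its interval. No paired analysis was possible because the lists hold no column per library, and no replicate could be left out for the same reason. The number of reads behind a call, which limits what a missing call means, is unknown.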

Other observations

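Of the corepressors that KLF factors work with, 7 were listed, and all of these were called. The list was chosen with earlier results of these data known, so the count is not independent evidence about such partners. CTBP1 and CTBP2, partners of KLF3, SIN3A and SIN3B, partners of KLF10 and KLF11, SAP30, HDAC1 and HDAC2 gave 7 of 7 genes with a start call, against 48.8% of all genes. SIN3A and SIN3B were called 1 bp upstream of an annotated start, SAP30 3 bp and HDAC1 11 bp upstream, HDAC2 12 bp and CTBP1 11 bp downstream. CTBP2 met the rule only by a call 464 bp upstream of an inner start. CTBP1 had 0 own-strand calls within 500 bp of its outer end, and both its start calls belonged to inner starts.

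The calls of KLF1 were compared with those of 1946 genes within 2-fold of its length. Own-strand calls were counted at the start and inside, and opposite-strand calls at the start, inside and at the far end. On all 5 counts, 0 of these genes equalled KLF1. Own-strand calls past the end were not among the counts. At least 8 own-strand calls, as in KLF1, were found in only 0.324% of genes with a start call. So strict a match cannot decide whether the pattern is peculiar to KLF1, and no conclusion is drawn from the 0. The nearest, ranked by the summed difference of these 5 counts in a measure chosen after the data were seen, were LYL1 and EEF1A1 at a difference of 3. LYL1, a blood cell transcription factor gene of 3826 bp, had 2 own-strand calls at the start and 3 further inside, against 2 and 6 in KLF1. EEF1A1, a translation elongation factor gene, had 1 and 6. DDIT4 and RPL13A followed at a difference of 4 and EIF1 at 5.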
